A study of Mus musculus with 6 samples.

Results

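The genes described here are 36 genes of the DNA damage response and of DNA repair, taken by symbol from a fixed list and all present among the 32285 features that were counted. They were measured by 10x Chromium 3' single-cell RNA sequencing of dorsal skin from adult male wildtype FVB mice of postnatal day 55 to 57, whose back skin was shaved and waxed so that the hair follicles (HFs) were driven into a new growth cycle. Skin was taken without delay (0 h), on the same day after 4 h and 16 h, and later after 2 d, 4 d as well as 6 d, and each of the 6 time points is 1 library in which equal numbers of cells from 2 mice were mixed. The values of the 2 mice cannot be separated, so no value has a replicate at its time point, and all libraries share strain, sex, genotype and depilation.

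DNA damage repair genes divide the work of keeping the genome intact. Homologous recombination copies the intact sister chromatid across a double-strand break and therefore works mainly in S and G2 phase, whereas end joining ligates break ends throughout the cycle. The ATR and ATM kinases report stalled replication forks and breaks to the cell cycle. In the resting hair follicle most outer bulge (OB) stem cells are out of the cycle, and depilation brings them back into it. The question asked of the genes was how their levels differed between time points, between cell types, and between cells with and without mRNA of Mki67 or Top2a, which are transcribed in S, G2 and M phase.

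The libraries held 7307 to 13878 barcodes and 72634390 to 112370376 UMIs (unique molecular identifiers, each standing for 1 captured mRNA), and 50502 cells passed all filters. Between 7 and 47 barcodes were shared by any pair of libraries. Cells were clustered without the cell cycle genes and the repair genes and named by markers, as OB-like (6275 cells), interfollicular epidermal basal-like (IFE.B-like, 16684 cells), upper follicle basal-like (uHF.B-like, 6094 cells) and others. A cluster of 2350 follicle cells led by Flg, Sprr1b, Krt1 and Krt10, keratinization genes that went against its nearest marker list, was left unnamed and is called HF cluster 2. Marker support for the other names varied. Among OB-like cells, hair follicle cluster 5 had 10 of 10 OB1 markers raised (mean log2 fold change 3.79) and cluster 10 had 8 of 10 (1.11). Cluster 1, with 2911 cells, had 5 of 10 (0.72). The uHF.B-like clusters 0 and 4 had 4 and 6 of 8 markers raised (0.38 and 0.51). A positive cell had at least 1 UMI of Mki67 or Top2a and a negative cell had none. Levels are CPM, per-million UMI counts taken over the summed UMIs of a group of cells, and because the kit counts transcript 3' ends they were not divided by gene length.

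Positive cells were common in some groups and rare in others. Of the OB-like cells, the libraries from 0 h to 6 d held 2.11% (10 of 474 cells), 0.593% (4 of 674), 8.19%, 27.2%, 40.8% and 17.2% positive cells. After every cell was thinned to 2000 UMIs these shares were 0.641%, 0.161%, 2.89%, 18.4%, 29.2% and 9.80%. At 0 h and 4 h the thinned shares were below those of the IFE.SB-like cells, the differentiated layers above the basal layer, in the same libraries (1.95% and 1.79%). The thinned IFE.SB-like share was not constant, with 4.19% at 2 d, 8.71% at 4 d and 2.00% at 6 d. Whether the few positive OB-like cells of 0 h and 4 h were in the cycle was not tested. At 16 h the thinned shares were alike (2.89% and 2.93%), so that no higher share was read for OB-like cells as a whole, although within hair follicle cluster 1 of these cells 19.3% were positive before thinning. The positive OB-like cells of 16 h were kept in the comparison of states, where their levels are given. Over all libraries the median depth was 5245 UMIs in OB-like and 10826 in IFE.SB-like cells. Positive OB-like cells were deeper than negative ones, with a median of 7772 against 4841 UMIs, and OB-like cells of 0 h and 4 h held too few positive cells to be compared.

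The 36 genes gave 267259 UMIs, of which 50.9% lay in positive cells, although those cells were 22.1% of all cells and held 29.1% of all UMIs. The genes differed widely in this share. Rad51ap1, which assists strand pairing in recombination, had 91.0% of its UMIs in positive cells. Fancd2, a ubiquitylated component of the Fanconi anaemia crosslink repair pathway, had 90.7%. Clspn, which encodes the adaptor that carries the signal of ATR to the kinase Chek1, had 89.2%. At the other end stood Rbbp8, which starts the trimming of break ends, with 29.6%, and Trp53bp1, a chromatin reader that limits this trimming, with 29.9%, both close to the 29.1% of all UMIs. The genes with the most UMIs were Rbbp8 (34901), the histone variant H2afx (29277), Rad50 (21333), Topbp1 (21063) and Tipin (18328), and the fewest were counted for Xrcc2 (816).

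**Figure D1:**
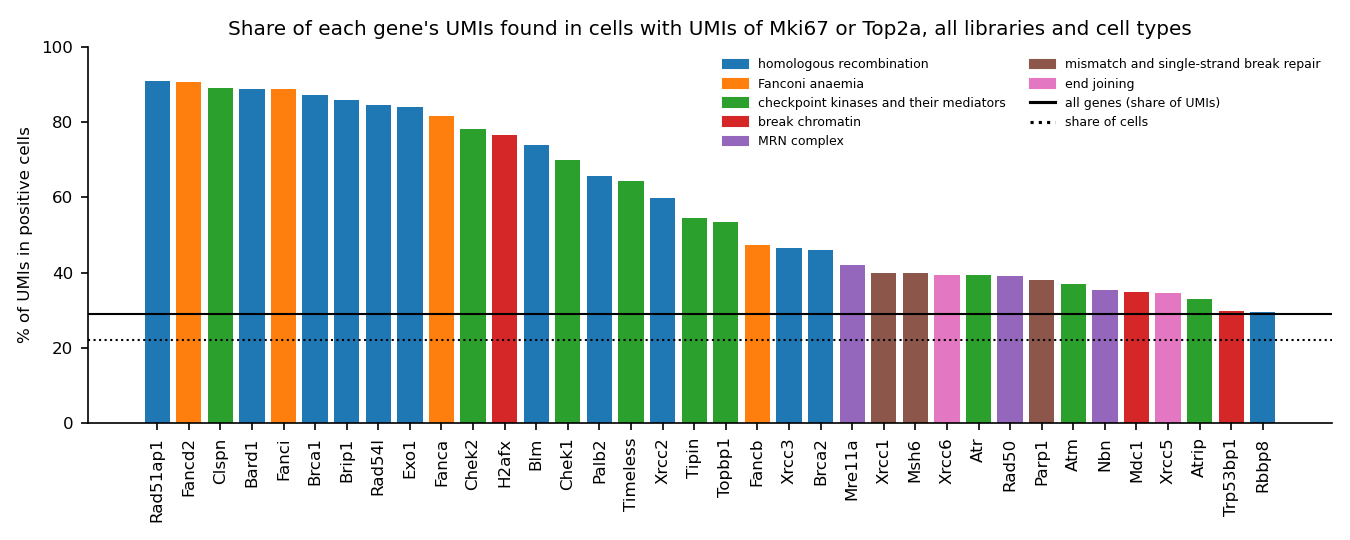
The bars show, for each of the 36 genes on the x axis, the percentage of its UMIs found in cells with at least 1 UMI of Mki67 or Top2a, over all libraries and cell types, coloured by role. The solid line marks the same share for all genes (29.1%) and the dotted line the share of cells (22.1%), and the genes run from Rad51ap1 (91.0%) down to Rbbp8 (29.6%), which lies next to the solid line.

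The start sites of the genes were looked at for the words of cell cycle promoters. RefSeq windows of 250 bases before to 50 bases after the start were at hand for 28 of the 36 genes (build GRCm38.p6), beside 32851 windows in all. They were searched on both strands for the E2F words TTTCCCGC, TTTGGCGC, TTTCGCGC and TTTGCCGC, for the words TTTGAA and TTCGAA of the cell cycle homology region (CHR), and for the CCAAT box. An E2F word stood in 8 of 28 windows (28.6%) against 2.26% of all windows, in Bard1, Brca2, Chek2, Clspn, Mdc1, Msh6, Topbp1 and Xrcc6. A CCAAT word stood in 67.9% against 37.4%, and a CHR word in 7.14% (Atr and Bard1) against 19.2%. A short word is a description of the letters and not a site of binding.

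Stretches before the start are printed for Clspn and Brip1, which differed strongly between positive and negative cells, for Topbp1, and for Trp53bp1 as a gene near the all-gene share. Capitals mark a matched word, GCGCGAAA being TTTCGCGC and ATTGG being CCAAT on the other strand, and each sequence runs 5' to 3' on the strand of the gene and ends before the outermost annotated start. Clspn lies at chr4:126556785-126556934 (plus strand), Brip1 at chr11:86201194-86201343 (minus strand), Topbp1 at chr9:103305077-103305214 (plus strand) and Trp53bp1 at chr2:121271408-121271557 (minus strand).
Clspn: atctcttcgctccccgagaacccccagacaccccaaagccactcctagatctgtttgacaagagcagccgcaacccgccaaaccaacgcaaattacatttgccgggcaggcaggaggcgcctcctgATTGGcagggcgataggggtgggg
Brip1: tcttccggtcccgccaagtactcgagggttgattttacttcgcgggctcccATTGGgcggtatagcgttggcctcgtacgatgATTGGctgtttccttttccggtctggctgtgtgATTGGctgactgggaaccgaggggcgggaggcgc
Topbp1: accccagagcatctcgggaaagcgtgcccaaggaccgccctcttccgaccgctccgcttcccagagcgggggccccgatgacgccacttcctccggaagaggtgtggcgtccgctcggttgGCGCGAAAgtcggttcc
Trp53bp1: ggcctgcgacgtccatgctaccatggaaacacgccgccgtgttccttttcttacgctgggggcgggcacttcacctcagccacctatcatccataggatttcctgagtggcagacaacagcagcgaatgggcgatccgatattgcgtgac
The stretch of Brip1 held 3 CCAAT words, at -99, -67 and -34 from the start, and that of Clspn 1, at -69. That of Topbp1 held an E2F word at -129, and the whole window of Trp53bp1 held no word of any of the 3 kinds. The E2F word of Clspn lay at 21 after the start, outside the stretch printed. The windows of Fanci, Chek1, Timeless and Parp1 held no word either, with 88.8%, 69.9%, 64.4% and 38.0% of their UMIs in positive cells. E2F words also stood in Mdc1 (34.9%), Msh6 (39.8%) and Xrcc6 (39.5%), so the printed stretches are examples only.

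Among cell types pooled over the libraries, the summed level of the 36 genes was highest in the inner root sheath (IRS)-like cells, at 1545 CPM. This name joins the IRS1-like and IRS2-like cells and leaves out the IRS3-like cells. Most of the IRS-like cells came from 4 d (1154 of 1364 cells), where 71.8% of them were positive. The uHF.B-like cells (839 CPM), OB-like cells (829 CPM), sebaceous gland (SG)-like cells (788 CPM), IFE.B-like cells (667 CPM) and T cell-like cells (648 CPM) followed. The differentiated groups were lowest, with 303 CPM in uHF.SB-like, 276 CPM in HF cluster 2, 268 CPM in inner bulge (IB)-like and 266 CPM in IFE.SB-like cells. H2afx followed a like order, from 314 CPM in IRS-like cells to 19.7 CPM in IFE.SB-like cells. Rbbp8 did not, since it was at 140 CPM in IFE.B-like and at 61.6 CPM in IRS-like cells. These pooled levels mix time points in different proportions and were not tested.

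Over the time points, the summed level in all OB-like cells was 343, 404, 585, 877, 1216 and 685 CPM from 0 h to 6 d. In negative OB-like cells alone it was 340, 401, 509, 485, 722 and 489 CPM, and in positive ones 1146, 1337, 1643 and 1260 CPM from 16 h to 6 d. The 4 d library was thus the highest in each series, and within every library from 16 h onward positive cells held 2.25 to 2.76 times the level of negative cells. The IFE.B-like cells had another course, with 548, 685, 834, 600, 630 and 571 CPM and their highest value at 16 h. The uHF.B-like cells had 570, 528, 1063, 790, 998 and 851 CPM.

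**Figure D2:**
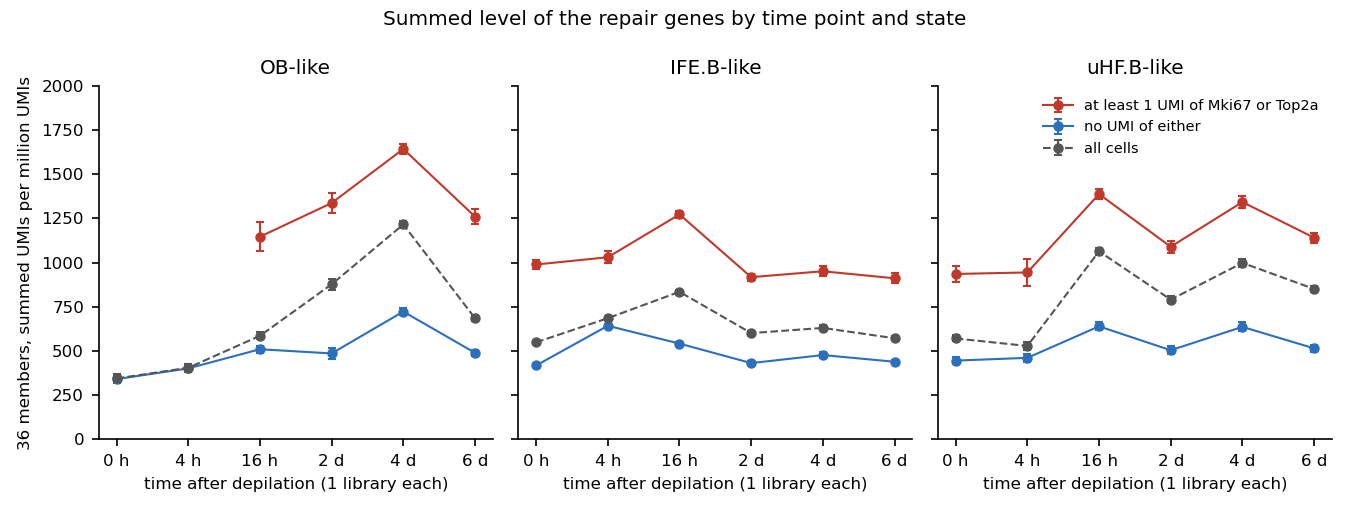
Summed CPM of the 36 genes (y axis) in OB-like, IFE.B-like and uHF.B-like cells at the 6 time points after depilation (x axis, evenly spaced), for positive cells, negative cells and all cells. Points are single libraries and bars are exact Poisson 95% intervals, which cover counting error only. The 4 d library is highest in OB-like cells (1216 CPM in all cells) and the 16 h library in IFE.B-like cells (834 CPM).

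Within libraries, most of the genes were higher in positive than in negative OB-like cells. In edgeR's quasi-likelihood test on summed counts with the library as block, 31 of the 36 genes were higher in positive cells and 0 were lower at a Benjamini-Hochberg adjusted p under 0.05, where 14.3% of all 11432 genes tested were higher and 16.2% lower. All 36 passed the filter on low counts. Some did so through positive cells alone, among them Fancd2, Fanci, Xrcc3 and Fanca. These were at most at 1.16, 1.49, 1.98 and 2.48 CPM in negative cells, so that a lower call was not open to them. The counts of genes higher, here and in the other cell types, include such genes. At an unadjusted p under 0.05, 32 of them passed, and DESeq2 called 27 higher and 0 lower. No share of all genes is given for these counts, since 14.3% and 16.2% belong to edgeR at the adjusted p. The median log2 fold change was 1.38, against -0.06 over all genes. Scaled to total UMIs only, the members kept 31 higher and 0 lower while all genes went from 1639 higher and 1850 lower to 1901 and 1488. The fit used the libraries from 16 h to 6 d, so its p-values measure the spread of the difference between 4 time points.

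Homologous recombination genes gave 11 of 12 higher. Rad51ap1 was at 39.0, 60.1, 63.8 and 53.5 CPM in positive OB-like cells from 16 h to 6 d, and at 1.69, 3.97, 9.75 and 2.99 CPM in negative ones. The 2 groups did not overlap, and the log2 fold change was 3.44 ± 0.25 (SE, adjusted p = 2.8e-06 by edgeR). The share of all genes whose groups did not overlap was not counted. Overlap is therefore given here and below, in each cell type, as a description of levels only. Brca1, which with its partner Bard1 forms a ubiquitin ligase at breaks, differed by 3.37 ± 0.23, the helicase gene Brip1 by 3.31 ± 0.26 and Bard1 by 2.90 ± 0.29. Brca2, which loads the recombinase on single-stranded DNA, was at 26.5, 42.6, 34.6 and 33.0 CPM in positive and at 6.98, 7.44, 13.1 and 7.26 CPM in negative cells, a log2 fold change of 1.84 ± 0.19 (adjusted p = 6.0e-06 by edgeR). The motor protein gene Rad54l (2.71), the nuclease gene Exo1 (2.38), Xrcc3 (2.01), the helicase gene Blm (1.74), Palb2 (1.74) and Xrcc2 (1.31) were higher as well. Rbbp8, the most abundant gene of the group, was not called. It was at 45.2, 64.7, 63.4 and 73.6 CPM in positive and at 53.5, 55.6, 70.9 and 72.1 CPM in negative cells, with a log2 fold change of -0.09 (normal 95% interval -0.32 to 0.14).

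Of the 4 Fanconi anaemia genes, 3 were higher in positive OB-like cells, all at low levels. Fancd2 was at 6.24, 7.58, 13.2 and 9.62 CPM against 0.635, 0.992, 1.16 and 0.142 CPM, with 1 to 7 UMIs in each negative group, and its log2 fold change was 3.75 ± 0.42. Its partner Fanci was at 14.04, 12.8, 10.2 and 5.85 CPM against 0.212, 1.49, 1.16 and 0.427 CPM and differed by 3.58 ± 0.42, and the core complex gene Fanca by 2.62 ± 0.37. Neither overlapped between the groups. Fancb, of the same core complex, was at 6.24, 2.92, 4.72 and 1.67 CPM against 1.48, 0.992, 2.31 and 1.14 CPM, with a log2 fold change of 1.11 ± 0.43 that did not pass the test (adjusted p = 0.065 by edgeR).

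Of the 9 checkpoint genes, 7 were higher. Clspn was at 68.6, 74.6, 87.3 and 71.9 CPM in positive and at 2.96, 5.46, 9.92 and 4.56 CPM in negative OB-like cells, a log2 fold change of 3.63 ± 0.19 (adjusted p = 8.3e-09 by edgeR). Topbp1, the activator of ATR, was at 114, 99.1, 133 and 106 CPM against 45.1, 33.2, 63.1 and 32.6 CPM (1.34 ± 0.13). Tipin, a subunit of the complex that steadies the replication fork, was at 109, 115, 134 and 107 CPM against 36.8, 34.2, 68.6 and 39.7 CPM (1.32 ± 0.13). None of these 3 genes overlapped between the groups. The kinase genes Chek2 and Chek1 differed by 1.80 ± 0.20 and 1.63 ± 0.22, and Timeless, the partner of Tipin, by 1.42 ± 0.27. The apical kinase gene Atm was higher by 0.56 ± 0.16, while Atr (0.08 ± 0.18) and its binding partner Atrip (0.17 ± 0.18) did not pass the test.

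Among the break chromatin genes, H2afx, whose product is phosphorylated around breaks, had the widest range of all. Its level in positive OB-like cells was 57.7, 149, 302 and 194 CPM from 16 h to 6 d, against 19.0, 12.9, 44.5 and 31.2 CPM in negative cells (log2 fold change 2.59 ± 0.23, adjusted p = 8.1e-05 by edgeR). Mdc1, the reader of that phosphorylated histone, was at 17.2, 19.8, 24.8 and 20.9 CPM against 17.8, 9.92, 14.9 and 12.7 CPM, higher by 0.60 ± 0.17 with groups that overlapped, the positive cells of 16 h lying under the negative ones. Trp53bp1 was at 18.7, 18.1, 25.6 and 17.6 CPM against 20.9, 13.9, 29.3 and 25.4 CPM, and its log2 fold change of -0.25 (normal 95% interval -0.57 to 0.07) did not pass.

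**Figure D3:**
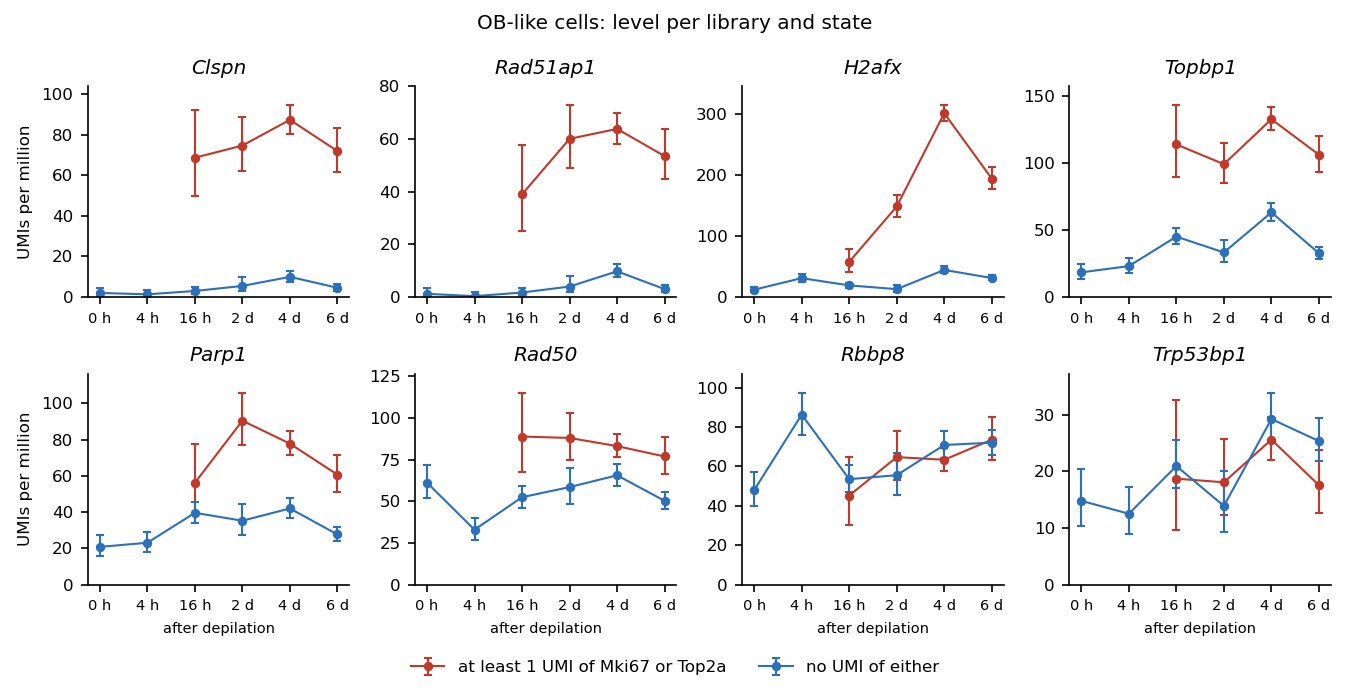
Level of 8 genes in OB-like cells (y axis, CPM, each panel with its own scale from 0) at the 6 time points (x axis, evenly spaced), for positive and negative cells, with exact Poisson 95% intervals for counting error. Positive cells of 0 h and 4 h are not drawn, since there were 10 and 4 of them. Clspn, Rad51ap1, H2afx and Topbp1 separate in every library, Parp1 and Rad50 by less, and Rbbp8 and Trp53bp1 do not separate.

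The MRN complex, mismatch and single-strand break repair and end joining genes were all called higher in OB-like cells, 8 of 8, with log2 fold changes of 0.49 to 0.93. The MRN complex tethers break ends, and its genes Mre11a, Nbn and Rad50 were higher by 0.91 ± 0.18, 0.50 ± 0.15 and 0.49 ± 0.11. Rad50 was at 88.9, 88.1, 83.2 and 76.9 CPM in positive and at 52.5, 58.5, 65.6 and 50.3 CPM in negative cells. Mre11a was at 24.96, 31.5, 26.8 and 23.4 CPM against 15.2, 9.92, 18.02 and 9.97 CPM, and Nbn at 35.9, 29.2, 24.8 and 19.6 CPM against 23.1, 15.9, 18.2 and 14.8 CPM. The groups of Rad50 and Mre11a did not overlap and those of Nbn did. Parp1, which senses single-strand breaks, was at 56.2, 90.4, 77.7 and 60.6 CPM against 39.6, 35.2, 42.0 and 27.6 CPM (0.93 ± 0.14, adjusted p = 1.7e-04 by edgeR). Its scaffold partner Xrcc1 was at 32.8, 25.7, 43.9 and 38.5 CPM against 19.7, 17.9, 30.9 and 26.9 CPM (0.49 ± 0.13), and the mismatch reader gene Msh6 at 48.4, 25.7, 49.5 and 25.5 CPM against 16.5, 16.9, 33.2 and 17.8 CPM (0.67 ± 0.17). Parp1 separated between the groups, whereas Xrcc1 and Msh6 overlapped across libraries and were higher in positive cells of each one. The Ku subunit genes of end joining did not overlap. Xrcc6 was at 34.3, 23.9, 30.8 and 21.7 CPM against 18.6, 11.9, 17.7 and 10.4 CPM (0.86 ± 0.15), and Xrcc5 at 51.5, 45.5, 49.7 and 37.2 CPM against 36.6, 31.3, 36.9 and 22.4 CPM (0.49 ± 0.12).

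**Figure D4:**
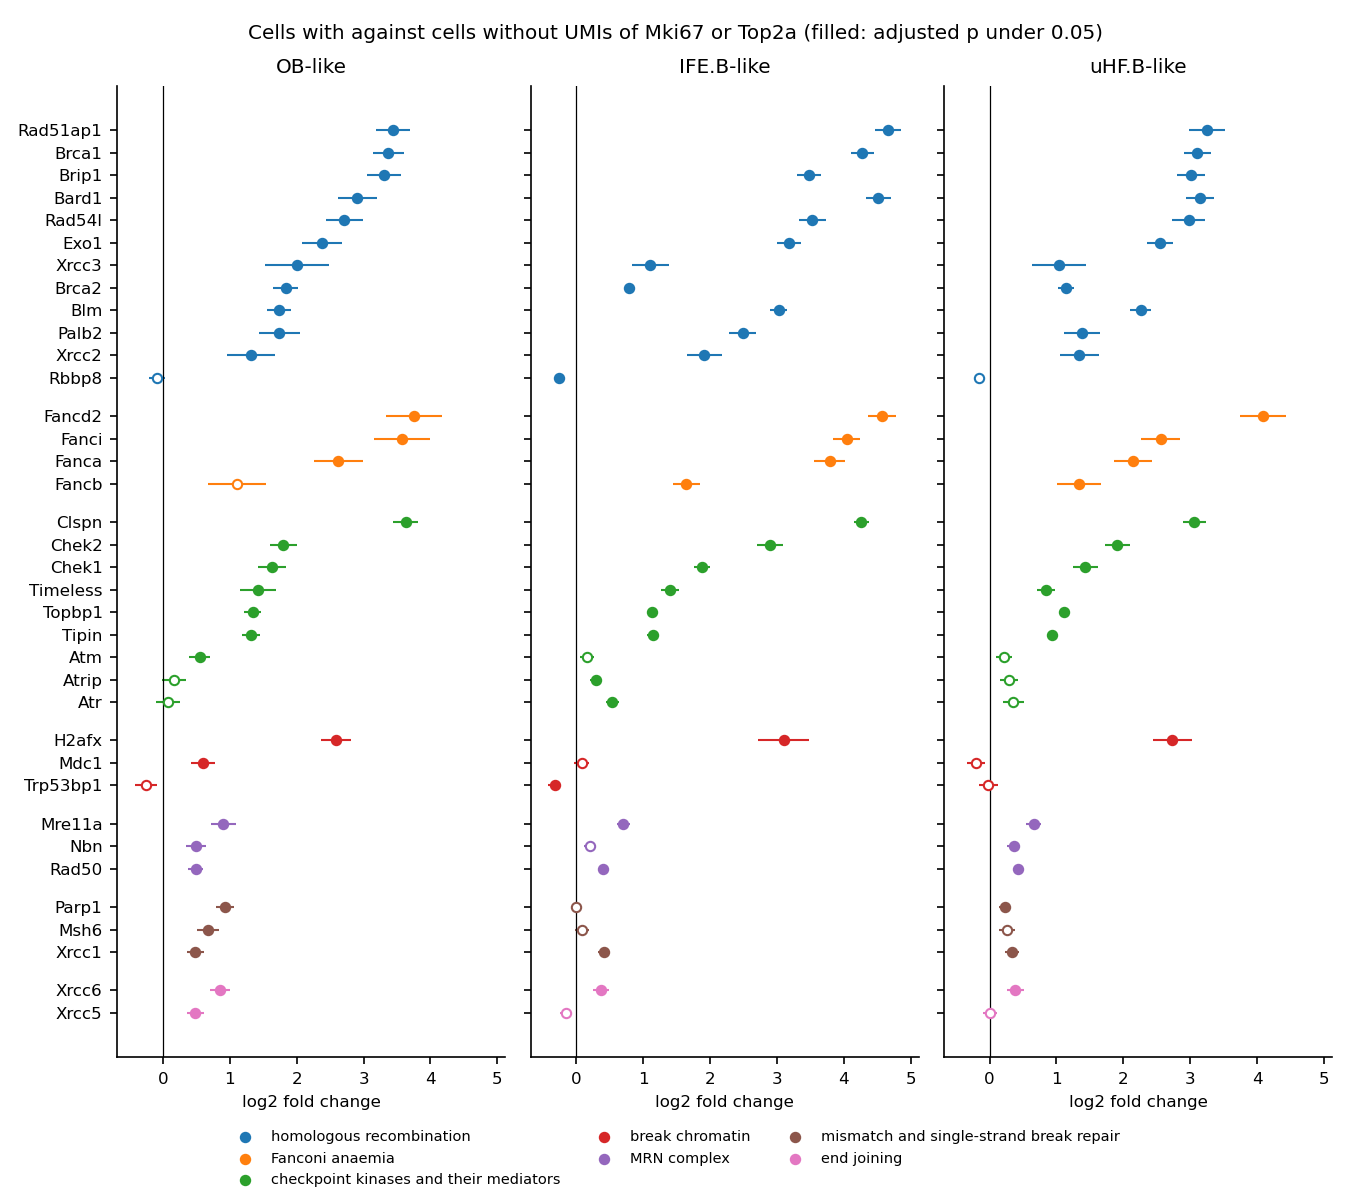
Log2 fold change (x axis) of each of the 36 genes (y axis, grouped by role) between positive and negative cells of 3 cell types. Points are edgeR estimates with bars of 1 standard error, filled where the Benjamini-Hochberg adjusted p was under 0.05. In OB-like cells 31 genes are filled and all of them lie to the right of 0, and Rbbp8 and Trp53bp1 are the genes left of 0.

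Positive and negative OB-like cells also differed in which OB-like cells they were. Hair follicle cluster 1, led by Scrg1 and Mfap2, held 52.4%, 85.2%, 92.0% and 77.2% of the positive cells from 16 h to 6 d, and 19.5%, 25.6%, 61.1% and 41.5% of the negative ones. The 9 OB markers summed to 3304 to 6252 CPM in positive and to 10256 to 11844 CPM in negative cells, and 7 of the 9 were lower in positive cells. Of the 9 markers of the IRS2 type, 2 were higher, and those of the T cell, endothelial and macrophage lists were too low to be tested. The part of this shift in the levels of the repair genes was not tested. The comparison was therefore repeated in the OB-like cells of cluster 1 alone (33, 127, 797 and 224 positive cells). There, 24 of the 34 genes that passed the filter were higher and 0 lower by edgeR, where 11.5% of all genes were higher. At an unadjusted p under 0.05, 29 passed, a count for which no share of all genes is given. The log2 fold change was 2.98 ± 0.17 for Clspn, 2.68 ± 0.20 for Rad51ap1 and 2.38 ± 0.14 for H2afx. Of the 31 genes called over all OB-like cells, Xrcc5 (0.22 ± 0.14), Xrcc1 (0.39 ± 0.15), Atm (0.40 ± 0.16), Msh6 (0.42 ± 0.18), Nbn (0.47 ± 0.18) and Xrcc2 (0.95 ± 0.35) were no longer called, and Xrcc3 no longer passed the filter.

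The basal cells outside the bulge gave a like count. In IFE.B-like cells, over all 6 libraries, edgeR called 28 of the 36 genes higher in positive cells, where 17.8% of all genes were. Rbbp8 (-0.25 ± 0.06) and Trp53bp1 (-0.32 ± 0.10) were lower, where 26.1% of all genes were, but both calls depended on the composition factors and ended when levels were scaled to total UMIs only, a scaling that moved the median of all genes from -0.07 to 0.05. Rad51ap1 was at 27.3 to 44.6 CPM in positive and at 0.335 to 2.13 CPM in negative IFE.B-like cells (log2 fold change 4.66 ± 0.19), Clspn at 43.3 to 100.1 against 1.45 to 5.27 CPM (4.26 ± 0.12) and H2afx at 108 to 204 against 9.70 to 38.6 CPM (3.10 ± 0.38). None of these 3 overlapped between the states. Atm, Mdc1, Msh6, Nbn, Parp1 and Xrcc5 did not pass. In uHF.B-like cells 28 of 36 were higher, where 14.7% of all genes were, and 0 were lower, where 17.2% were. At an unadjusted p under 0.05, 32 passed in uHF.B-like cells, and DESeq2 called 23 higher and 0 lower. For the unadjusted and DESeq2 counts no share of all genes is given. Fancd2 (4.09 ± 0.34), Rad51ap1 (3.25 ± 0.26), Bard1 (3.15 ± 0.21), Brca1 (3.11 ± 0.21) and Clspn (3.06 ± 0.17) differed most there. Markers differed between the states in these types too. In positive IFE.B-like cells 9 of the 11 IFE.B markers were lower and 0 higher, though their sums overlapped (31638 to 46523 against 29218 to 45538 CPM). In positive uHF.B-like cells 4 of the 8 uHF.B markers were lower and 0 higher. The part of these shifts in the repair genes was not tested. In all, 25 genes were higher in each of the OB-like, IFE.B-like and uHF.B-like cells, where 9.7% of all genes tested in the 3 were.

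In the other cell types with enough positive cells fewer genes passed the filter. In SG-like cells 28 of 35 were higher in positive cells, where 17.1% of all genes were, with Clspn at 5.03 ± 0.36. Rbbp8, called lower in IFE.B-like cells, was higher there (0.65 ± 0.13) and in uHF.SB-like cells (0.70 ± 0.20). The markers moved as well. In positive SG-like cells 7 of the 8 SG markers were lower (2404 to 6670 CPM summed, against 8993 to 14870 in negative cells) and 9 of the 11 IFE.B markers higher, and in positive uHF.SB-like cells 6 of 7 own markers were lower and 4 of 11 IFE.B markers higher. The part of these shifts in the repair genes was not tested. In uHF.SB-like cells 12 of 23 were higher, where 7.52% of all genes were, and in HF cluster 2 it was 10 of 28, where 2.67% of all genes were. Rad51ap1 and Bard1 in uHF.SB-like cells reached at most 0.568 and 0.853 CPM in negative cells. In HF cluster 2, Rad51ap1, Fancd2, Brip1 and Brca1 reached at most 0.464, 0.478, 0.527 and 0.929 CPM there. These genes passed the filter through positive cells alone, and a lower call was not open to them. In IFE.SB-like cells 9 of 32 were higher, where 8.18% of all genes were, and Xrcc5 alone was lower (-0.34 ± 0.11), where 8.89% of all genes were. That call also ended on total UMIs only, and the count of genes higher was 1 at the doubled doublet rate and 15 where positive cells had at least 2 UMIs of Mki67 and Top2a. The summed level of positive IFE.SB-like cells was 0.966 to 1.36 times that of negative ones, and their median depth was 18144 against 10415.5 UMIs. Over the 7 cell types fitted, 12 of the 36 genes were higher in every type that tested them (4 to 7 types), where 1.92% of all genes tested in at least 4 types were, and Trp53bp1 was higher in none.

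The size of the difference was compared between cell types as an interaction, in libraries with both types and states. Between OB-like and IFE.B-like cells, 3 genes had a larger log2 fold change in OB-like cells, where 1.93% of all genes did. These were Brca2 by 0.97 ± 0.21, Parp1 by 0.82 ± 0.16 and Xrcc5 by 0.69 ± 0.15 (adjusted p = 0.0074, 0.0035 and 0.0052 by edgeR). Parp1 in IFE.B-like cells was at 25.9, 59.8, 41.1, 29.7, 18.3 and 25.5 CPM in positive and at 25.4, 56.0, 30.01, 26.4, 20.8 and 26.2 CPM in negative cells from 0 h to 6 d, so that the groups overlapped there and not in OB-like cells. A smaller log2 fold change in OB-like cells was found for Bard1 (-1.53 ± 0.43), Blm (-1.24 ± 0.23) and Chek2 (-0.85 ± 0.24), where 5.69% of all genes were smaller. Against uHF.B-like cells only Parp1 passed (0.67 ± 0.16, adjusted p = 0.023 by edgeR), where 0.946% of all genes did. Without the 6 d library 0 genes were larger in OB-like cells in either comparison. With the OB-like cells of cluster 1 alone, 2 genes were larger and 8 smaller than in IFE.B-like cells. Of all genes, 1.86% were larger and 1.97% smaller. The 8 smaller genes included Rad51ap1 (-1.57 ± 0.29), Clspn (-1.10 ± 0.25) and H2afx (-1.04 ± 0.24). Against uHF.B-like cells 0 were larger and 1 smaller by edgeR, where 0.256% and 1.12% of all genes were. At an unadjusted p under 0.05, 6 passed against uHF.B-like cells, a count for which no share of all genes is given. Brca2 against IFE.B-like cells (0.72 ± 0.22, adjusted p = 0.060 by edgeR) and Parp1 against uHF.B-like cells (0.42 ± 0.15, adjusted p = 0.23 by edgeR) were then not called.

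No gene passed the test of the time course. With summed counts per library and cell type and a spline of hours, edgeR called 0 of the genes in 9 cell types, and called 0.0% of all genes in OB-like, IFE.B-like, IFE.SB-like, uHF.B-like, uHF.SB-like cells and HF cluster 2, 0.0161% in Langerhans-like, 0.0514% in T cell-like and 5.16% in melanocyte-like cells. In OB-like cells 17 of the 35 genes that passed the filter had an unadjusted p under 0.05, against 8.11% of all 11536 genes. The 6 libraries leave 2 residual degrees of freedom, and the same fit recovered 8.81% of genes given a 4-fold change in simulated OB-like counts. On log2 of hours, 17 of the genes were called in OB-like cells, all of them higher, where 7.16% of all genes were. In negative OB-like cells the spline called 0, and 3 of 27 genes passed at an unadjusted p under 0.05, where 4.71% of all genes did.

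As a description with 1 library on each side, 29 of the 36 genes were at least 2-fold higher in OB-like cells at 4 d than at 0 h, where 22.9% of all genes counted were, and the median fold was 5.16 against 1.29 for all genes. Levels of 0 h under 3 UMIs were set to that floor, and a gene was counted with at least 20 UMIs over both libraries. In all OB-like cells (474 at 0 h, 2124 at 4 d), Exo1 and Fanca had 0 UMIs at 0 h. Brca1, Chek1, Fanci and Xrcc3 had 1, and Bard1, Fancb, Fancd2 and Xrcc2 had 2. These genes were counted through 4 d alone, and their folds rest on the floor. The same held for Brca1, Chek1, Exo1 and Xrcc2 in negative cells. Brip1, Palb2 and Rad54l (3 UMIs each at 0 h), Rad51ap1 and Timeless (4 each), Chek2 (5), Clspn (6) and Blm (9) also reached 20 UMIs through 4 d alone. This held in negative cells too. All genes named so far were among the 29, so that count and the median fold rest largely on genes admitted by the library where they were high. H2afx was at 13.99 CPM at 0 h and at 182 CPM at 4 d, Tipin at 16.7 and 104 CPM, Topbp1 at 18.7 and 100.4 CPM, and Clspn at 2.33 (6 UMIs) and 51.4 CPM. Rad50 was at 60.6 and 75.0 CPM, Rbbp8 at 47.0 and 66.9 CPM and Trp53bp1 at 15.5 and 27.3 CPM, and these 3 stayed under 2-fold. Among negative OB-like cells 19 of the 30 genes counted were at least 2-fold higher at 4 d, where 19.8% of all genes were, with a median fold of 2.48. Of the negative OB-like cells, 61.1% belonged to cluster 1 at 4 d, whereas at 0 h 56.7% belonged to cluster 5, led by Krt24 and Cd34, and the part of this shift in the levels was not tested. In IFE.B-like cells 0 of 36 genes were 2-fold higher at 4 d, where 3.35% of all genes were, and 1 of 27 in negative cells, where 4.09% were. In uHF.B-like cells 16 of 36 were, where 14.9% of all genes were, and 8 of 25 in negative cells, where 15.5% were.

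Among negative cells, the number of the genes that were highest in the 4 h library was near or below the share of all genes in most cell types. It was 12 of 36 in IFE.B-like cells, where 31.4% of all genes tested were highest at 4 h, 14 of 35 in IFE.SB-like cells (33.6%), 5 of 36 in uHF.B-like cells (27.2%) and 3 of 35 in OB-like cells (21.1%). Atrip, named after its values were seen, was highest at 4 h in 8 of 9 cell types. Mdc1, Xrcc2 and Xrcc6 followed with 6 of 9 each. Low counts were not filtered out for this, and the share of all genes highest at 4 h in as many cell types was not counted. In negative IFE.B-like cells Atrip was at 11.7, 22.5, 11.5, 7.97, 11.6 and 12.4 CPM from 0 h to 6 d. The 4 h library has no replicate.

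Other genes of the same pathways, from lists outside the 36, were counted in the same fits, where 14.3% of all genes were higher and 16.2% lower in OB-like cells. The replication fork and mismatch repair list had 18 of 20 genes higher and 0 lower in positive OB-like cells (median log2 fold change 1.14), among them the sliding clamp gene Pcna (1.39 ± 0.10). The other recombination and Fanconi genes had 10 of 21 higher and 0 lower (median 1.03). Break ubiquitin signalling and translesion genes had 6 of 12 higher, with the ligase gene Rad18 at 2.32 ± 0.20. Base excision repair had 6 of 13 higher, with the glycosylase gene Neil3 at 5.96 ± 0.33, and the other end joining genes had 1 of 8, Polq (3.42 ± 0.44), whose polymerase joins resected ends. No gene of the nucleotide excision repair list (0 of 14) was called in either direction in OB-like cells. In IFE.B-like cells the recombination and Fanconi list had 16 of 21 higher, where 17.8% of all genes were higher and 26.1% lower. Nucleotide excision repair had 3 higher and 2 lower of 14 there, the first near its share and the second under it.

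Direct targets of P53, the transcription factor that damage signalling stabilises, were counted as a list of their own. In positive OB-like cells 2 of the 19 tested were higher and 8 lower, with a median log2 fold change of -0.39, where 14.3% of all genes were higher and 16.2% lower with a median of -0.06. The cell cycle inhibitor gene Cdkn1a fell by 1.16 ± 0.10 on the log2 scale and Trp53inp1 by 1.39 ± 0.17. Gtse1 (2.76 ± 0.43), a mitotic gene that is also a P53 target, and Pmaip1 (0.86 ± 0.29) were higher. The positive and negative OB-like cells also differed in cluster and in OB markers, as described above. The part of that shift in the P53 targets was not tested, and the list was not counted in cluster 1 alone. In IFE.B-like cells 1 was higher and 5 lower of 20, where 17.8% of all genes were higher and 26.1% lower. The count of lower targets is near its share there. In uHF.B-like cells 1 was higher and 6 lower of 20, where 14.7% of all genes were higher and 17.2% lower. In SG-like cells 4 were higher and 2 lower of 19 (median 0.03). There, 17.1% of all genes were higher, which is near the count of higher targets, and the share lower is not given.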

How the data were processed

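Single-cell suspensions of 6 libraries were sequenced by the authors, who aligned the reads to mm10 with Cell Ranger 6.1.2 per the labels and deposited raw UMI counts per gene and cell. From these counts, cells with 500 to 7000 genes and at most 10% mitochondrial counts were kept, and 4675 likely doublets were removed by Scrublet score at 0.8% per 1000 cells (scanpy 1.11.5). Cells were integrated and clustered with Seurat 5.3.0 (30 components, 2000 variable genes, resolution 0.2 for skin and 0.4 for follicle) without 731 genes of the lists studied, of the cell cycle or correlated with it, and clusters were named by marker lists. Counts were summed per library, cell type and state. States were compared with edgeR 4.0.16 (quasi-likelihood, TMM factors, low-count filter, library as block) in at least 4 libraries with 20 cells of each state, cell types by an interaction term, and time by a spline of 3 degrees of freedom. P-values were adjusted over all genes (Benjamini-Hochberg, 0.05). DESeq2 1.42.0, total-UMI scaling, no filter, other state definitions, doublet rates and clusterings, and leaving out each library were alternatives. Intervals are exact Poisson or Clopper-Pearson at 95% and cover counting error only. The state fit recovered 86.9% of genes given a 2-fold change in simulated OB-like counts.

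The 36 genes, their roles, the other lists and the tests were chosen with earlier results of these data known. In each role the 3 genes with the most UMIs were to be given in full, with every gene whose direction differed from its group, and genes called in no cell type.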

Additional observations from a re-analysis of the deposited data

Results flagged for a closer look

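In 7 comparisons the log2 fold change between cells with and without Mki67 or Top2a UMIs differed between 2 cell types by the interaction term of edgeR, with Benjamini-Hochberg adjustment. Between OB-like and IFE.B-like cells it was larger in OB-like cells for Brca2 by 0.97, for Parp1 by 0.82 and for Xrcc5 by 0.69. It was smaller in OB-like cells for Bard1 (-1.53), Blm (-1.24) and Chek2 (-0.85). Against uHF.B-like cells it was larger in OB-like cells for Parp1 by 0.67. The shares of all genes that were called were 1.93% larger and 5.69% smaller against IFE.B-like cells and 0.946% larger against uHF.B-like cells, so that 3 smaller among 36 is near the share of all genes. The differences rest on 4 libraries. The larger ones were not called without the 6 d library, and of the smaller ones 1 gene was called without 2 d and 1 without 4 d. With the OB-like cells of cluster 1 alone, Brca2 against IFE.B-like cells and Parp1 against uHF.B-like cells were not called.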

How the results depend on the processing

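No paired analysis was possible because each time point is 1 library and the groups hold 1 sample each; in the state fits the library itself is the block. Of the comparisons of single genes between states under the alternatives, 1565 kept direction and call, 17 gained a call and 67 lost it, and of the differences between cell types 34 kept and 15 lost it. Genes lower in IFE.B-like cells numbered 0 on total UMIs and 1 by DESeq2. Genes lower in IFE.SB-like cells numbered 2 with Mki67 alone, and 0 on total UMIs, by DESeq2, after thinning, with at least 2 UMIs, with Top2a alone, without integration, at the doubled doublet rate and with at most 6000 genes. Genes higher numbered 15 in IFE.SB-like cells with at least 2 UMIs and 1 at the doubled doublet rate, and 5 in HF cluster 2 by DESeq2 and at the doubled doublet rate, and 1 gene was lower in uHF.B-like cells with Top2a alone. In the time course of OB-like cells 17 genes were called on log2 of hours, 11 on ranks and 2 without a filter, and without a filter 4 were called in T cell-like, 2 in Langerhans-like and 1 in melanocyte-like cells. For counts under the alternatives, no share of all genes is given unless it stands in the Results above. After thinning, the summed level of positive OB-like cells was 1436, 1451, 1742 and 1442.5 CPM (16 h to 6 d) and that of negative ones 547, 609.8, 891 and 560.3 CPM, and at the doubled doublet rate positive cells of 2 d had 1404 CPM. Added after seeing the data, OB-like cells of cluster 1 alone gave 8 genes smaller than in IFE.B-like cells, 0 larger and 1 smaller than in uHF.B-like cells, and 7 in the time course on log2 of hours.

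Leaving out 1 library at a time, genes higher numbered 25 to 31 in OB-like, 27 to 29 in IFE.B-like, 23 to 28 in uHF.B-like, 24 to 28 in SG-like, 8 to 11 in uHF.SB-like and 6 to 11 in IFE.SB-like cells and 4 to 13 in HF cluster 2 (5 without 16 h, 4 without 2 d). Genes lower numbered 1 to 3 in IFE.B-like cells (1 without 16 h), 0 to 1 in IFE.SB-like (0 without 0 h, 2 d or 6 d) and 0 to 1 in uHF.B-like cells (1 without 4 h). Against IFE.B-like cells 0 to 3 genes were larger in OB-like cells (0 without 6 d) and 1 to 3 smaller (1 without 2 d or 4 d), and against uHF.B-like cells 0 to 2 were larger (0 without 6 d, 2 without 16 h). The time course called 0 to 16 genes in OB-like (16 without 0 h, 4 without 4 h, 3 without 6 d), 0 to 5 in T cell-like (5 without 0 h) and 0 to 2 in Langerhans-like cells (2 without 0 h or 4 h). The cause of these changes was not tested. Without a library, the time course has fewer residual degrees of freedom than the 2 of the full fit. No share of all genes is given for the counts with a library left out.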
